A study of Rattus norvegicus with 13 samples.

Results

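The genes described here encode subunits of the oxidative phosphorylation system, the mitochondrial machinery that passes electrons from food molecules to oxygen and uses the energy to make ATP. They were taken by gene symbol: names beginning with Nduf and a subunit letter and number (complex I), the 4 Sdh genes (complex II), the Uqcr genes (complex III), Cox4 to Cox8 (complex IV) and Atp5 (complex V, ATP synthase), plus the 13 protein-coding genes of the mitochondrial genome. The rule found 91 of the 14855 genes measured, 13 mitochondrially encoded and 78 nuclear. No fold change or p-value entered the rule.

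Complexes I, III and IV pump protons across the inner mitochondrial membrane while they hand electrons on, complex II feeds electrons in from the citric acid cycle, and complex V lets the protons flow back to drive ATP synthesis. Complexes I, III, IV and V are built from proteins of both genomes. The mitochondrial genes are transcribed together as long precursors that are cut into single messages, while each nuclear subunit has a promoter of its own. Neurons depend heavily on this system, since ion pumping after synaptic activity consumes much of the ATP of brain tissue.

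RNA was sequenced from the medial preoptic area (MPOA), a hypothalamic region, of adolescent male SAS Sprague-Dawley rats. In one group, of 5 samples, an adeno-associated virus of serotype 5 (AAV5) carried GFP and a short hairpin RNA (shRNA) against Oprm1, the mu opioid receptor gene; in the other, of 7 samples, the same kind of virus carried GFP and a scrambled shRNA. In both groups the U6 promoter, active in any infected cell, drove the hairpin, and the virus was given on both sides on postnatal day 21 at 0.5 uL per side. A sixth Oprm1 shRNA sample, number 6, is marked in its label as an outlier and was not used. The labels do not say whether each sample is 1 rat, nor the age at collection beyond adolescence.

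The data are the authors' deposited table of a single edgeR comparison, Oprm1 shRNA over scrambled shRNA, so a positive log2 fold change means a higher level with Oprm1 shRNA. Values of single samples were not analysed here, and the spread between samples enters through the standard error that the deposited likelihood ratio statistic implies. Abundance is the authors' average CPM (reads scaled to a common library size) over the libraries, which is not divided by transcript length and so orders genes by reads, not by number of transcripts. In bulk tissue, fewer cells of a type and less RNA per cell cannot be told apart. The targeted gene, Oprm1, had a fold of 0.670 at 7.32 CPM per the authors' deposited table, with an approximate 95% interval from 0.0715 to 6.27, too wide to check the labels. Preoptic and neuronal markers were present per the authors' deposited table, with Gal at 64.1, Esr1 at 41.8 and Gad1 at 574 CPM. Of 45 measured markers of 9 cell types and tissues, 0 passed at an adjusted p under 0.05 by the authors' edgeR test, and 2 (4.44%) had an unadjusted p under 0.05, against 4.39% of all genes.

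None of the 91 oxidative phosphorylation genes passed at an adjusted p under 0.05 by edgeR's likelihood ratio test, a count of 0 per the authors' deposited table, where 0.0202% of all genes passed. Ndufb8, a membrane-arm subunit of complex I, came closest, with a fold of 1.67 (interval 1.19 to 2.35) and an adjusted p of 0.846 per the authors' deposited table. With an unadjusted p under 0.05, 4 of the 91 (4.40%) stood out per the authors' deposited table, beside 4.39% of all genes. All 4 were on the higher side, where the authors' deposited table had 1.49% of all genes, and 0 were on the lower side, where it had 2.90%. Genes with few reads make up most of that excess on the lower side. All 4 have a log2 CPM of at least 4, as do 83 of the members, and they are 4.82% of those 83. Of the 8538 genes of that abundance, 3.26% had an unadjusted p under 0.05 per the authors' deposited table, 1.62% higher and 1.64% lower. Among the members, 52 were higher and 39 lower with Oprm1 shRNA, and the median log2 fold change was 0.06, against −0.02 over the whole of the authors' deposited table.

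The medians of the 2 genomes lay on different sides of 0. Of the 13 mitochondrially encoded genes, 2 were higher and 11 lower with Oprm1 shRNA per the authors' deposited table, and their log2 fold changes ran from −0.39 to 0.02 around a median of −0.06. Of the 78 nuclear genes, 50 were higher and 28 lower per the authors' deposited table, with a median of 0.13 and a range from −1.61 to 1.51. The difference of the medians, mitochondrial minus nuclear, was −0.19 on the log2 scale of the authors' deposited table. It was not tested, since a test needs values of single samples and the messages of the mitochondrial genome share their precursors. Averaged with weights by abundance in place of medians, the difference was −0.11, from −0.06 for the mitochondrial and 0.05 for the nuclear genes per the authors' deposited table. The median standard error of a single gene was 0.144 among the mitochondrial and 0.297 among the nuclear genes per the authors' deposited table.

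**Figure D1:**
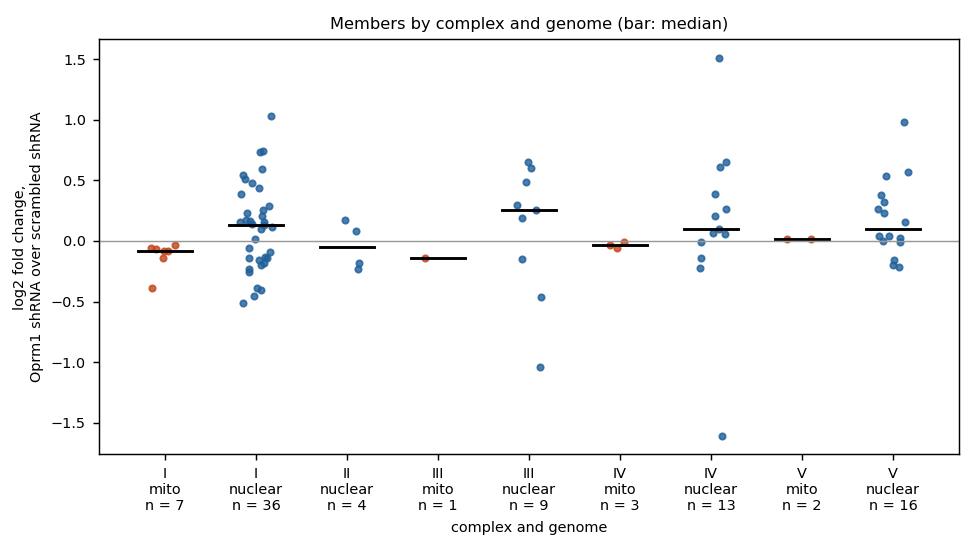
Log2 fold change (vertical axis, Oprm1 shRNA over scrambled shRNA) of the 91 members by complex and genome (horizontal axis). Each point is 1 gene and each bar the median of its column. The mitochondrial columns of complexes I, III (1 gene) and IV lie wholly below 0, and that of complex V lies above it (0.01 and 0.02). The medians of the nuclear columns of complexes I, III, IV and V lie above 0, and that of complex II lies below it (−0.05).

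Within the complexes that draw on both genomes, the authors' deposited table had 0 of 7 mitochondrial genes higher in complex I, beside 22 of 36 nuclear ones. For complex III it had the single mitochondrial gene CYTB at a log2 fold change of −0.14, beside 6 of 9 nuclear genes higher. In complex IV, 0 of 3 mitochondrial and 9 of 13 nuclear genes were higher per the authors' deposited table. In complex V, 2 of 2 mitochondrial and 11 of 16 nuclear genes were higher per the authors' deposited table. Its mitochondrial values, 0.01 for ATP6 and 0.02 for ATP8, lie within their standard errors of 0.142 and 0.229. Those of complex IV, from −0.06 to −0.01, also lie within 1 standard error of 0, so these signs do not set the 2 complexes apart. Over the whole table, 48.4% of genes were higher.

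Most mitochondrial genes had narrow intervals. Together they held 6.83% of the summed average CPM per the authors' deposited table, and the 78 nuclear members 0.847%. For 12 of the 13 mitochondrial genes the approximate 95% interval lay within a 1.5-fold change in either direction per the authors' deposited table, against 14 of 78 nuclear members and 9.39% of all genes. The exception was ND4L. For these 12 genes, changes beyond 1.5-fold lie outside the interval, whereas for most nuclear members they do not. These groups differ in abundance, with a median of 4119 CPM for the mitochondrial genes, 65.3 for nuclear members and 22.2 for all genes. Of all genes of log2 CPM at least 4, 16.3% had an interval within 1.5-fold. From log2 CPM 8 to 9 the median standard error was 0.178 over all genes and 0.192 over members. From 11 to 12 it was 0.0661 over all genes and 0.0932 over members.

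Of the 7 mitochondrial subunits of complex I, which form the core of its proton-pumping membrane arm, the smallest p belonged to ND5 and ND4L. ND5 had a log2 fold change of −0.14 per the authors' deposited table, a fold of 0.908 with an interval from 0.819 to 1.01 (unadjusted p = 0.0668). ND4L had the most negative value of the 13, −0.39 per the authors' deposited table, with an interval of the fold from 0.565 to 1.03 and an unadjusted p of 0.0785. Neither passed, and both intervals hold a fold of 1. ND4L and ND4 are carried on 1 joint message whose reading frames overlap, and ND4, at 4850 CPM beside 375 CPM for ND4L, had −0.09 per the authors' deposited table. The log2 interval of ND4 reached from −0.34 to 0.17 and overlapped that of ND4L, −0.82 to 0.04 per the authors' deposited table.

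ND1 had a log2 fold change of −0.06, ND2 −0.07 and ND3 −0.03 per the authors' deposited table, each with an interval across 0. ND6, the only protein gene read from the other strand of the mitochondrial genome, had −0.08 at 404 CPM per the authors' deposited table. Whether the libraries were stranded is not in the labels, so reads of ND6 and of precursors antisense to it cannot be told apart. The value of ND6 lay within the range of the 12 genes on the opposite strand, −0.39 to 0.02.

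CYTB, the cytochrome b core of complex III, drew 6532 CPM and had a log2 fold change of −0.14 per the authors' deposited table, with an interval from −0.44 to 0.16. COX1, the oxygen-reducing core of complex IV, drew the most reads of all 14855 genes, 23775 CPM, and had −0.06 (interval −0.55 to 0.44) per the authors' deposited table. COX2, which takes electrons from cytochrome c, had −0.01 there and COX3 −0.04 per the authors' deposited table. ATP6, the proton channel subunit of ATP synthase, had 0.01 (interval −0.26 to 0.29), and ATP8, whose reading frame overlaps that of ATP6 on a joint message, had 0.02 (−0.43 to 0.47) per the authors' deposited table. Among these 6 genes the smallest unadjusted p was 0.367, for CYTB per the authors' deposited table.

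The standard errors of the mitochondrial genes did not shrink with abundance. ND5, at 2385 CPM, had the smallest, 0.0759, and COX1, the most abundant, had the largest, 0.252, per the authors' deposited table. ND5 lies in a narrow band from 1448 to 2896 CPM, in which the median standard error of 25 genes was 0.0542, against 0.0930 in a band as wide just below it per the authors' deposited table. The band around ND5 was picked from these data as the one of smallest median standard error. That choice itself favours low errors and low p-values within the band. In this band 48.0% of genes had an unadjusted p under 0.05 per the authors' deposited table, against 4.39% of all genes. With the standard error of ND5 raised to that of the lower band, its unadjusted p was 0.135.

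**Figure D2:**
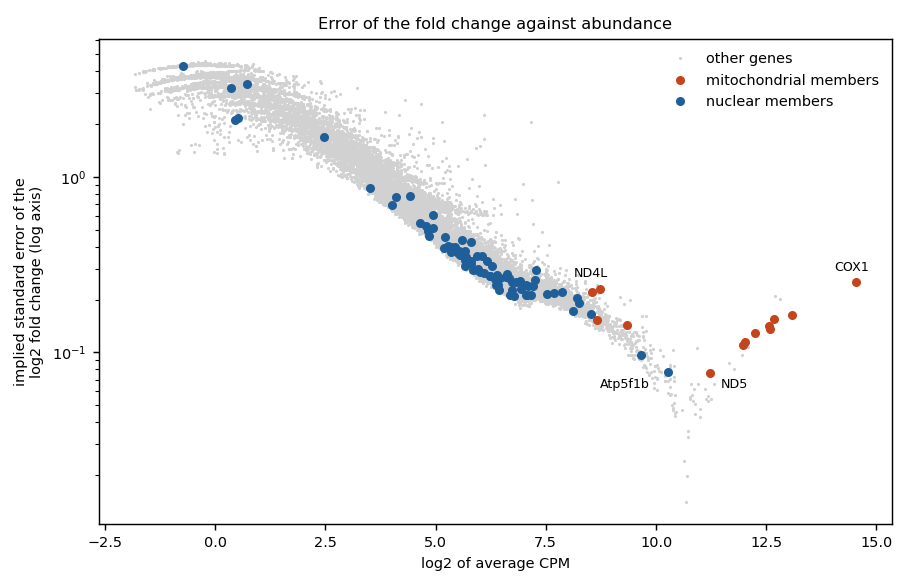
Standard error of the log2 fold change implied by the deposited statistic (vertical log axis) against the log2 of average CPM (horizontal axis), 1 point per gene, with members in colour. The error falls with abundance down to genes near ND5 (0.0759) and is larger again for the most abundant mitochondrial genes, up to 0.252 for COX1.

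Complex I takes electrons from NADH, and of its 36 nuclear members 22 were higher and 14 lower with Oprm1 shRNA per the authors' deposited table, around a median of 0.13 on the log2 scale. Ndufb8 had the smallest p of all 91 members, 0.00319, and a log2 value of 0.74 ± 0.251 (implied standard error) at 113 CPM per the authors' deposited table. Ndufs3, a core subunit of the arm that carries electrons to ubiquinone, had 0.73 ± 0.332 at 55.8 CPM, a fold of 1.66 with an interval from 1.06 to 2.60 and an unadjusted p of 0.0279 per the authors' deposited table. Its adjusted p there was 0.9997.

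The nuclear core subunits, which hold the flavin and the iron-sulfur clusters, had values of either sign. Ndufs1 had a log2 fold change of −0.09, Ndufv1 −0.14, Ndufs7 0.25 and Ndufs8 0.23 per the authors' deposited table. Ndufv2, the partner of Ndufv1 at the NADH entry site, had −0.41 (interval −0.85 to 0.04, unadjusted p = 0.0769), on the other side of 0 from Ndufs3 per the authors' deposited table. Ndufv3, an accessory subunit at the same site, had 0.59 (−0.06 to 1.25, unadjusted p = 0.0773), so 2 neighbours at the entry site had opposite signs per the authors' deposited table.

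Accessory subunits stabilise the complex. The members grouped with them by symbol, Ndufa4 and Ndufa4l2 included, numbered 29, with 18 higher, 11 lower and a median log2 fold change of 0.13 per the authors' deposited table. Of the Ndufb genes, which belong to the membrane arm, 7 of 10 were higher per the authors' deposited table, ranging from −0.23 for Ndufb11 to 0.74 for Ndufb8. Of the 14 Ndufa genes 9 were higher per the authors' deposited table, from −0.51 for Ndufa11 to 1.03 for Ndufa4l2. The value of Ndufa4l2, at 5.52 CPM, has a standard error of 1.68 and gives no direction. Ndufs4, needed for the NADH-oxidising part and known in humans for its loss in Leigh syndrome, had −0.26 (interval −0.70 to 0.18) and Ndufs5 had −0.19 per the authors' deposited table. Ndufc1 had 0.55 and Ndufc2 −0.20 per the authors' deposited table. Ndufa4, now counted among the subunits of complex IV, had 0.13 (−0.28 to 0.55) per the authors' deposited table.

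Ndufa1 was almost without reads under its own symbol, at 1.29 CPM with a standard error of 3.20 per the authors' deposited table. A row outside the symbol rule, LOC108348144, which the file describes as the same complex I subunit, held 36.0 CPM and a log2 fold change of 0.07 (interval −0.78 to 0.92) per the authors' deposited table. Likewise, the iron-sulfur subunit 6 appeared under 2 other symbols, LOC679739 and LOC100912599, each at 10.1 CPM with 0.26 per the authors' deposited table. Ndufab1, the carrier protein subunit that the symbol pattern passes over, had 0.15 (−0.88 to 1.19) per the authors' deposited table. The smallest unadjusted p of these 4 rows was 0.771, for Ndufab1 per the authors' deposited table.

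**Figure D3:**
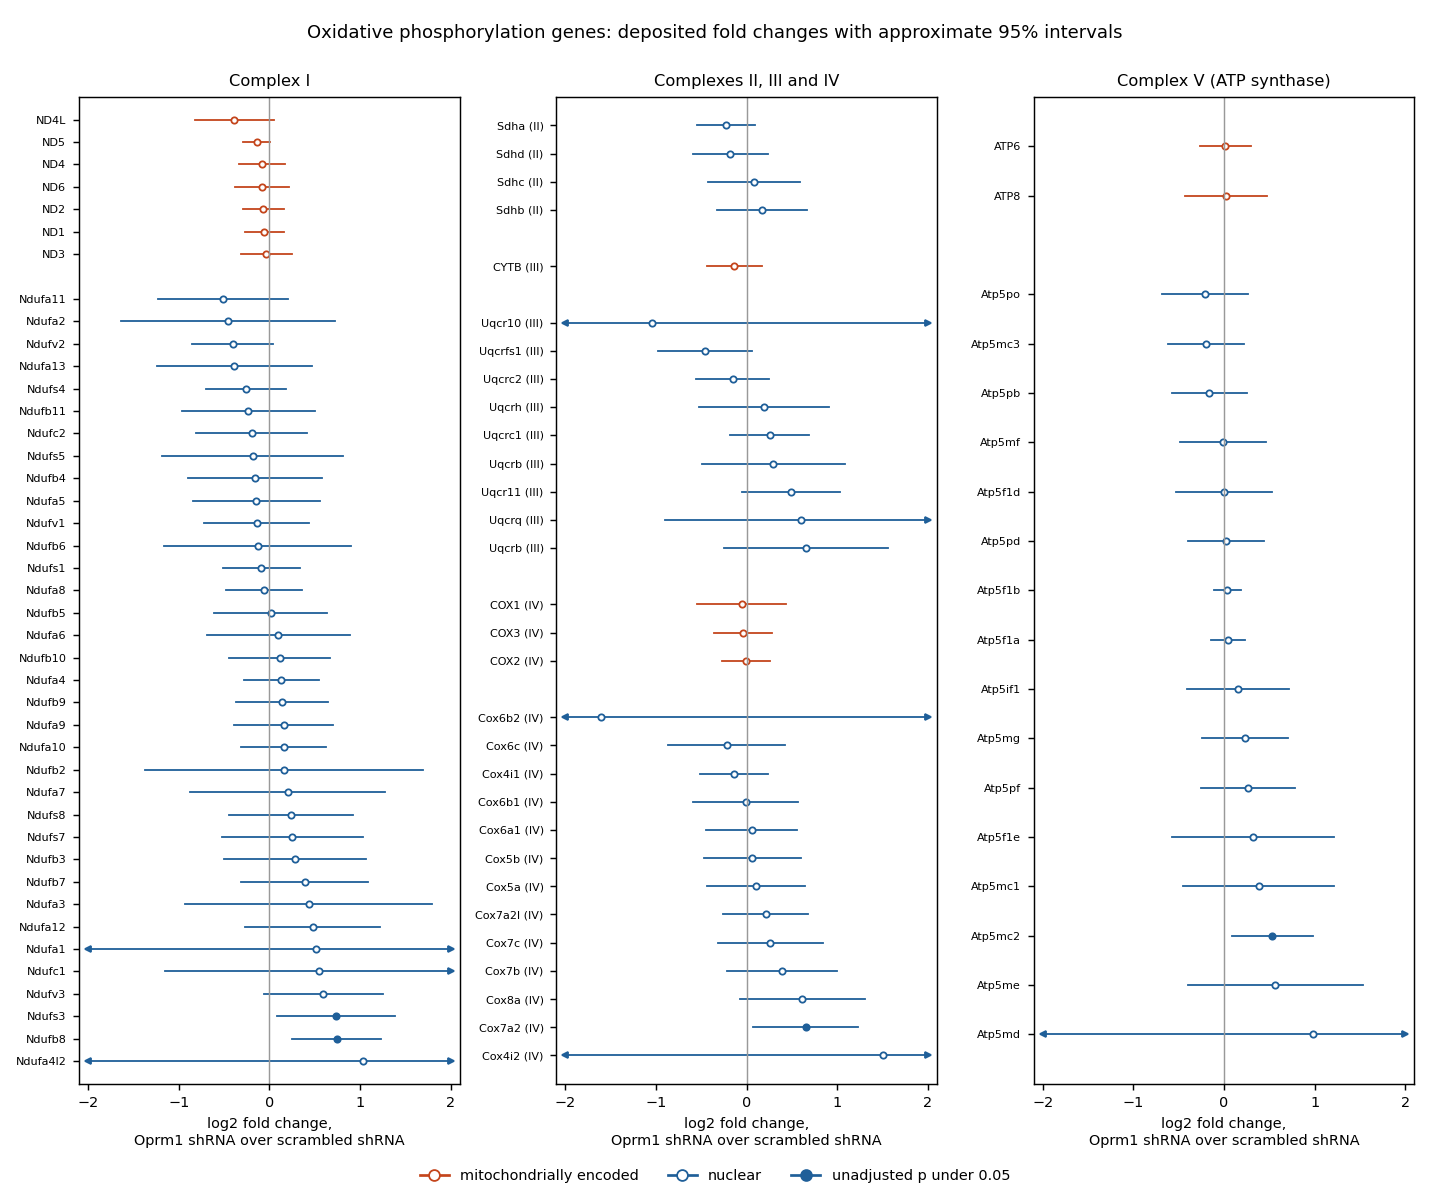
Log2 fold change, Oprm1 shRNA over scrambled shRNA (horizontal axis), of 90 of the 91 members, each with its approximate 95% interval, by complex and genome (orange mitochondrial, blue nuclear). Filled circles mark the 4 members with an unadjusted p under 0.05, which are nuclear and lie to the right of 0; arrowheads mark intervals that run beyond the axis.

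Complex II, succinate dehydrogenase, is made of nuclear subunits alone and had 2 higher and 2 lower per the authors' deposited table. Sdha, the flavoprotein that oxidises succinate, drew 370 CPM and had a log2 fold change of −0.23 (interval −0.55 to 0.09, unadjusted p = 0.164) per the authors' deposited table. Sdhb, its iron-sulfur partner, had 0.17 (−0.32 to 0.67) per the authors' deposited table. The membrane anchors Sdhc and Sdhd had 0.08 and −0.18 there, so neither the catalytic pair nor the anchor pair shared a sign per the authors' deposited table. All 4 intervals lay within a 2-fold change in either direction.

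Complex III passes electrons from ubiquinol to cytochrome c, and its 9 nuclear rows spread from −1.04 to 0.65 around a median log2 fold change of 0.25 per the authors' deposited table. Uqcrfs1, the Rieske iron-sulfur protein, had −0.46 (interval −0.98 to 0.06, unadjusted p = 0.0827) per the authors' deposited table. Uqcr11, a small subunit, had 0.49 (−0.05 to 1.03, unadjusted p = 0.0737), the smallest p of the complex per the authors' deposited table. The core proteins Uqcrc1 and Uqcrc2, at 234 and 295 CPM, had 0.25 and −0.15 per the authors' deposited table. Cyc1, the cytochrome c1 subunit that the symbol pattern passes over, had −0.40 (−0.93 to 0.12) per the authors' deposited table. The electron-carrying subunits CYTB, Uqcrfs1 and Cyc1 all had negative values, none of which passed, and each interval spanned 0. The value of CYTB, −0.14, lies within its standard error of 0.154. This grouping was not set in advance.

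Uqcrb, the ubiquinone-binding protein, has 2 rows, ENSRNOG00000024967 at 0.65 and ENSRNOG00000032204 at 0.29 per the authors' deposited table. Rows that share a symbol may divide each other's reads, so both are uncertain. Uqcrh, the acidic hinge protein, had 0.19 and Uqcrq 0.60 per the authors' deposited table. Uqcr10, at 1.43 CPM, had a fitted −1.04 with a standard error of 2.15 there.

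Complex IV, cytochrome c oxidase, surrounds its mitochondrial core with small nuclear subunits, several of which exist as tissue isoforms. Of its 13 nuclear members 9 were higher and 4 lower per the authors' deposited table, and the median log2 fold change was 0.10. Cox7a2, the widely expressed form of subunit 7a, had 0.65 ± 0.296 (implied standard error) at 61.4 CPM, a fold of 1.57 with an interval from 1.05 to 2.35 and an unadjusted p of 0.0278 per the authors' deposited table. Cox8a had 0.61 (interval −0.08 to 1.30, unadjusted p = 0.0823) per the authors' deposited table. Cox4i1, the most abundant nuclear subunit at 307 CPM, had −0.14 (−0.51 to 0.24) per the authors' deposited table.

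Among the remaining small subunits, Cox7b had 0.39, Cox7c 0.26, Cox5a 0.10, Cox5b 0.06, Cox6a1 0.06, Cox6b1 −0.01 and Cox6c −0.22 per the authors' deposited table, each with an interval across 0. Cox7a2l, which joins complexes III and IV into supercomplexes, had 0.21 (interval −0.26 to 0.68) per the authors' deposited table. The isoforms known mainly from other tissues had few reads. Cox4i2, the hypoxia- and lung-associated partner of Cox4i1, lay at 0.603 CPM and Cox6b2, the testis form of Cox6b1, at 1.65 CPM per the authors' deposited table. Their fitted values there, 1.51 for Cox4i2 and −1.61 for Cox6b2, have standard errors of 4.28 and 3.38 and give no direction.

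Complex V had 11 of 16 nuclear members higher and 5 lower with Oprm1 shRNA per the authors' deposited table, and the median log2 fold change was 0.10. The catalytic subunits of its F1 head, Atp5f1a and Atp5f1b, were the most abundant nuclear members at 804 and 1244 CPM, with log2 fold changes of 0.04 each per the authors' deposited table. Their folds, 1.03 for both, had intervals from 0.904 to 1.17 for Atp5f1a and from 0.924 to 1.14 for Atp5f1b per the authors' deposited table, the narrowest of all nuclear members. Of the minor F1 subunits, Atp5f1d had a fold of 0.998 and Atp5f1e 1.25 per the authors' deposited table.

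The c ring, the rotor that the proton flow turns, is encoded by 3 genes whose proteins differ in the import signal but give the same mature subunit. Atp5mc2, at 86.5 CPM, had a log2 fold change of 0.53 ± 0.226 (implied standard error), a fold of 1.45 with an interval from 1.07 to 1.97 and an unadjusted p of 0.0180 per the authors' deposited table. Atp5mc1 had 0.38 ± 0.426 at 55.4 CPM, and Atp5mc3, at 142 CPM the one with the most reads, had −0.20 ± 0.212 per the authors' deposited table. Weighted by CPM, the 3 genes averaged 0.14. The genes of the ring thus had no common sign, and the differences between them were not tested.

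The peripheral stalk, which holds the head still, had 2 of 4 genes higher per the authors' deposited table, with Atp5pf at 0.27, Atp5pd at 0.02, Atp5pb at −0.16 and Atp5po at −0.21. Atp5pb has a copy outside the symbol rule, LOC100911417, with the same 110 CPM and a log2 fold change equal to 6 decimals per the authors' deposited table, so the reads of subunit b may be split between both rows. The membrane accessory subunits Atp5me, Atp5mf and Atp5mg had 0.57, −0.01 and 0.23 there, and Atp5md, at 1.37 CPM, a fitted 0.98 with a standard error of 2.11 per the authors' deposited table. Atp5if1, the inhibitor that stops the enzyme from running backwards, had 0.16 (interval −0.40 to 0.71) per the authors' deposited table.

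**Figure D4:**
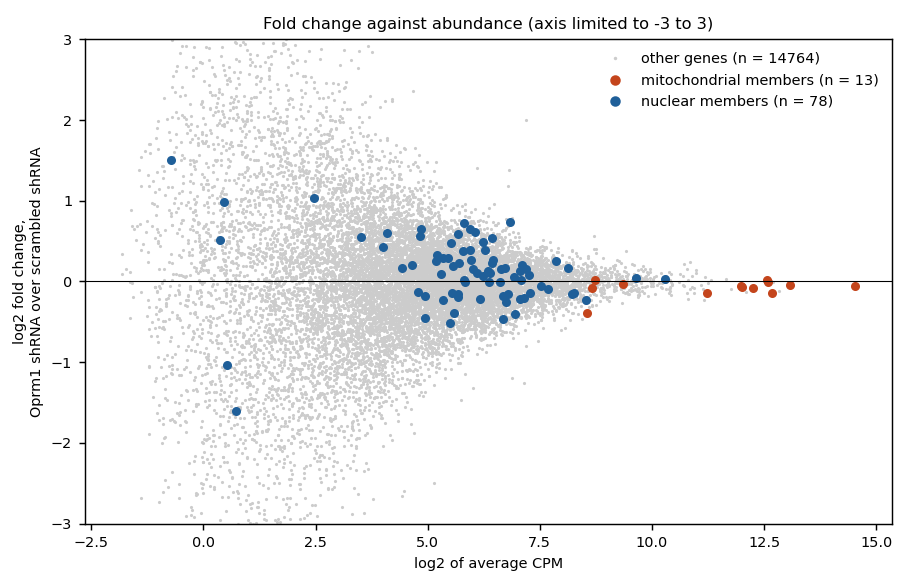
Log2 fold change, Oprm1 shRNA over scrambled shRNA (vertical axis), against the log2 of average CPM (horizontal axis), with members in colour over the other 14764 genes in grey. The vertical axis is cut, so other genes with the largest changes are not shown. Over all genes the log2 fold change ran from −11.32 to 12.19. Members above log2 CPM 4 lie between −0.51 and 0.74, and the values beyond that range belong to members with few reads.

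The extreme values of the list belonged to members with few reads. Those under log2 CPM 4 were 8 nuclear genes with a median standard error of 2.13 per the authors' deposited table. The other 83 ranged from −0.51 to 0.74 with a median standard error of 0.265 per the authors' deposited table. Among these, 44 nuclear genes were higher and 26 lower, and their median log2 fold change was 0.10, beside 49.2% higher and a median of −0.01 over all 8538 genes of that abundance per the authors' deposited table.

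Promoter sequences are shown for the 4 members with the smallest p. Each holds a different one of 4 motifs known from promoters of nuclear mitochondrial genes. The sequences come from RefSeq (build GRCr8, another build than the authors' Rnor_6.0) and are given 5′ to 3′ on the gene's strand. The motif is in capitals, which in Cox7a2 is the ETS motif read from the other strand. Counted from the gene's start, it begins at 21 in Ndufb8, −56 in Atp5mc2, −43 in Cox7a2 and 35 in Ndufs3. The motifs of Ndufb8 and Ndufs3 thus lie after the start. The windows lie at chr1:253362887-253362940 for Ndufb8, chr7:135678240-135678299 for Atp5mc2, chr8:89601161-89601217 for Cox7a2 and chr3:97339605-97339644 for Ndufs3, all on the minus strand.
Ndufb8, YY1 motif: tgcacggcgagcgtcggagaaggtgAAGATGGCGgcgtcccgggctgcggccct
Atp5mc2, NRF1 motif: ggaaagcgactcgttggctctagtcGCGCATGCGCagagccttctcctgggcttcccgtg
Cox7a2, ETS motif: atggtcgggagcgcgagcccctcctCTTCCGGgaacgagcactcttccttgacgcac
Ndufs3, CCAAT motif: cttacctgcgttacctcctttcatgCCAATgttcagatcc

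For 68 of the 77 nuclear symbols a promoter of 300 bases, 250 before and 50 after the gene's start, was matched and searched on both strands. The YY1 letters AANATGGCG stood in 16 of these 68 promoters (23.5%), against 3.01% of all 33469 promoters of the same length and 5.37% of those of the other measured genes. The letters CCGGAAG of the ETS family stood in 21 (30.9%), against 8.75% of all promoters and 15.4% of those of the other measured genes. NRF1, the nuclear respiratory factor, had its palindrome, shown in capitals for Atp5mc2, in 4 (5.88%), against 0.852% of all promoters and 1.63% of those of the other measured genes. CCAAT, bound by NFY, stood in 22 (32.4%), against 37.5% of all promoters and 36.8% of those of the other measured genes. In 0 of the 68 did the letters of 2 motifs overlap.

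The median log2 fold change was 0.13 with the YY1 letters and 0.12 without them per the authors' deposited table. It was 0.19 with and 0.10 without the ETS letters per the authors' deposited table, and 0.16 with and 0.12 without the NRF1 letters. For CCAAT it was 0.16 with and 0.10 without per the authors' deposited table. These gaps were not tested, and a match is a description of letters, not of binding.

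Around the subunits, 10 lists of other genes of the pathway had 127 measured members, of which 0 passed at an adjusted p under 0.05 and 2 (1.57%) had an unadjusted p under 0.05 per the authors' deposited table, a smaller share than the 4.39% of all genes. Both belong to the 15 antioxidant and uncoupling genes. Txn2, the mitochondrial thioredoxin, had a log2 fold change of 0.71 (interval 0.11 to 1.30, unadjusted p = 0.0197) and Prdx5, a peroxiredoxin, 0.59 (0.02 to 1.15, unadjusted p = 0.0423) per the authors' deposited table. The list itself had 7 higher and 8 lower with a median of −0.14 per the authors' deposited table.

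Assembly factors, which build the complexes without staying in them, had 10 of 16 higher for complex I, 4 of 4 for complex II, 4 of 6 for complex III, 10 of 16 for complex IV and 4 of 4 for complex V per the authors' deposited table. Their members of smallest p were Tmem186 (log2 fold change 0.86) and Timmdc1 (0.58) for complex I per the authors' deposited table. For complex II they were Sdhaf3 (2.22, at 8.72 CPM) and Sdhaf2 (0.34), and for complex III Ttc19 (−0.49) and Uqcc1 (0.09) per the authors' deposited table. Cox10, needed to make the heme A of complex IV, had −0.94 and Coa4 1.39, while Atpaf2 and Atpaf1, chaperones of the F1 head, had 0.87 and 0.33 per the authors' deposited table. The intervals of all these named factors span 0, that of Sdhaf3 from −1.13 to 5.57.

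Genes that maintain and express the mitochondrial genome had 12 higher and 13 lower with a median of −0.02 per the authors' deposited table, led by Hsd17b10 (−0.85), a part of mitochondrial RNase P, and Pnpt1 (−0.76), an RNA-degrading enzyme. Tfam, which packages mitochondrial DNA and starts its transcription, had −0.49 (interval −1.51 to 0.53), and Polrmt, the polymerase, 0.68 (−0.82 to 2.18) per the authors' deposited table; both were chosen for their role after their values were seen. Regulators of mitochondrial biogenesis had 5 of 11 higher, and their smallest p belonged to Esrrg (0.97, unadjusted p = 0.0585) and the coactivator gene Ppargc1a (−1.28, unadjusted p = 0.172) per the authors' deposited table.

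Electron carriers had 7 of 16 higher with a median of −0.01 per the authors' deposited table, with Cyc1 and Coq3 (0.65), a ubiquinone-making enzyme, of smallest p. Import pores and inner membrane carriers had 9 of 14 higher with a median of 0.04 per the authors' deposited table. Slc25a4, the ADP/ATP carrier that exports the ATP made, had 0.23 (interval −0.04 to 0.50) and Vdac2, an outer membrane channel, 0.23 (−0.14 to 0.60) per the authors' deposited table. No list around the complexes had a member that passed the threshold.

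Cell type makeup was read beside these values. Neuronal markers had 5 of 10 higher, astrocyte markers 2 of 7 and oligodendrocyte markers 1 of 6 per the authors' deposited table, with medians of −0.02, −0.14 and −0.05. Microglial markers had 2 of 6, endothelial 3 of 3 and preoptic 7 of 7 higher per the authors' deposited table, with medians of −0.04, 0.29 and 0.32. Every interval of the endothelial and preoptic markers spanned 0. The preoptic markers had a median of only 10.3 CPM, and their largest value, 3.09 for Otp at 2.76 CPM, had a standard error of 2.46. The more abundant Gal and Esr1 had 0.14 and 0.08. The markers with an unadjusted p under 0.05 were Map2 (−0.15) and Slc1a2 (−1.47) per the authors' deposited table. Map2, at 1756 CPM, lies in the same band as ND5, and with its standard error raised likewise, a step added after seeing the data, its unadjusted p was 0.112. Choroid plexus, red blood cell and muscle markers, with 2 measured each, had 1, 1 and 2 higher per the authors' deposited table. Their part in the values of the oxidative phosphorylation genes was not tested.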

How the data were processed

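Per the submitters' processing notes, reads were handled with bcl2fastq 2.20, STAR 2.5.3a, RSEM and edgeR 3.28.0 on the rat build Rnor_6.0 (annotation, low-count filter, dispersion setting, covariates: not given in the sources used here). For each gene the authors deposited a log2 fold change, the log2 of the average CPM, the likelihood ratio statistic (a score with no fixed range), a p-value and a Benjamini-Hochberg adjusted p-value, per the file headers. The deposited p-values were recovered from the statistic by a chi-square test on 1 degree of freedom, and the adjusted ones imply 14859 tests. There were 0 columns of single samples, so depth is unknown. The quasi-likelihood test, planned only for counts per sample, could not be run. The p-values test the difference between the groups against the spread between samples that the authors' fit assigned to each gene. How that spread was set is not known.

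An implied standard error was computed as the absolute log2 fold change over the square root of the statistic, with an approximate 95% interval of 1.96 standard errors (Python 3.11.15, numpy 2.4.6, pandas 2.3.3, scipy 1.17.1, figures with matplotlib 3.10.9). The code was run on simulated fold changes whose statistic was built with the same formula. That run checks the arithmetic and cannot show how well the intervals hold for the authors' fit. The implied standard error is poor for genes with few reads. RSEM divides reads between similar transcripts by estimate. The members, lists and motifs were chosen with earlier results of these data known, so lists are described by counts and medians and get no test. Named members are the 13 mitochondrial genes, those with an unadjusted p under 0.05, in each complex those of smallest p, highest abundance and narrowest error, the isoform families, and in each other list the 2 of smallest p; further members appear to account for the whole list. The values of 1 member, which enters the counts and medians, are not reported here. Protein sequences were not used here.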

Additional observations from a re-analysis of the deposited data

How the results depend on the processing

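The count of members called was 0 in the authors' deposited table and 0 at an adjusted p under 0.1, with the adjustment redone over all rows, or over rows of log2 CPM at least 4; it was 4, all 4 higher, at an unadjusted p under 0.05. The count at an unadjusted p under 0.05 was also 4 with the standard errors of abundant genes raised. It was 4 again at log2 CPM of at least 4, a setting added after seeing the data. Neither setting could lower it. ND5 is the only member in the band with raised errors, and all 4 members have a log2 CPM of at least 4. The difference of medians or weighted means, mitochondrial minus nuclear, ranged from −0.20 to −0.11 over its 6 alternatives. The mitochondrial value ranged from −0.08 to −0.06 and the nuclear one from 0.05 to 0.13. The ends −0.11, −0.08 and 0.05 came from weighted means, not medians. For complex III the abundance-weighted mean, in which CYTB has most of the weight, was −0.12 against a median of 0.22. Values for all members (−0.05 to 0.06), complex I (−0.07 to 0.01) and complex IV (−0.04 to 0.07) also took either sign. No paired analysis was possible because values of single samples were not analysed here; for the same reason no replicate was left out.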
